A study of Homo sapiens with 16 samples.

Results

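A group of 9 target genes of the tumour suppressor p53 was followed across human myeloma cell lines given short hairpin RNAs (shRNAs). The 9 genes were taken by symbol from the 23459 genes of the deposited table and were CDKN1A, MDM2, ZMAT3, BTG2, CCNG1, GADD45A, FAS, RRM2B and TP53INP1. All 9 were found once and passed the filter on low values. The study concerned CD86 and survival signals in myeloma, and its samples were 16 RNA-seq libraries, 1 for each combination of 4 backgrounds and 4 shRNA constructs. The backgrounds were the myeloma lines MM.1s and KMS18, a derivative of RPMI8226 that overexpresses Mcl1, a protein that blocks apoptosis (written RPMI8226-Mcl1), and RPMI8226 itself. Each background was given a shRNA against CD28, a shRNA against CD86, a control shRNA against Gapdh, or the empty pLKO.1 vector (Vec). Expression is given as FPKM, a level corrected for exon length and library size.

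p53 is a transcription factor that is kept at low levels by MDM2, a ubiquitin ligase that marks it for destruction and is itself a p53 target, so that the pair forms a negative feedback loop. When DNA is damaged or growth signals are abnormal, p53 accumulates and activates genes that halt the cell cycle, repair DNA or promote cell death.

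Promoters of FAS and MDM2 were the ones among those searched that held a p53-like element next to a start site, and they are shown for that reason. RefSeq windows of 300 bases (GRCh38.p14, 250 before to 50 after each start) were found for 6 of the 9 genes, 13 windows in all, and not for GADD45A, RRM2B and TP53INP1. They were searched on both strands for the p53 consensus decamer repeated without a gap, a site of 20 bases, with up to 3 mismatches outside the fixed C and G of each decamer. Such a site was held by 3 of the 13 windows, 1 of FAS and 2 of MDM2 that overlap and share it, and by 1.12% of 35116 windows of all genes. The match in FAS lay at chr10:88991309-88991328 on the + strand, starting 122 bases before the start in its window. The other FAS windows, chr10:88990548-88990847 and chr10:88990664-88990963, lie upstream of this match and held no such site. The match in MDM2 lay at chr12:68808923-68808942 on the + strand. Both matches had 2 mismatches, and capitals mark the 4-base core of each decamer:

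FAS element: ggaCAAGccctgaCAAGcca

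MDM2 element: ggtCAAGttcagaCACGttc

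In the windows around them, chr10:88991181-88991480 for FAS and chr12:68808767-68809066 for MDM2, both on the + strand, the capitals mark the whole 20-base match:

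FAS window: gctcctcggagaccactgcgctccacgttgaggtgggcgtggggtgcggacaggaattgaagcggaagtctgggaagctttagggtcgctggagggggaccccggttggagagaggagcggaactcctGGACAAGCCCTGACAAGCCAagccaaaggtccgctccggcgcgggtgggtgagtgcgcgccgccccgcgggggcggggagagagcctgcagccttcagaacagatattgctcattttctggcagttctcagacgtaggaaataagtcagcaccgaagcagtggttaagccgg

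MDM2 window: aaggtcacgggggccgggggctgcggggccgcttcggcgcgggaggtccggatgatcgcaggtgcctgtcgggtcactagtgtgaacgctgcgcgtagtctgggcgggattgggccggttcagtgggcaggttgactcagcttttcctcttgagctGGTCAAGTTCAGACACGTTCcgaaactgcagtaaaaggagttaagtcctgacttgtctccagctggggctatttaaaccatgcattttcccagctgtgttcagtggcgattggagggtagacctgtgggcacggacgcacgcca

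The MDM2 window belongs to the downstream promoter of the gene, which is known for its response to p53. An exact copy of a single decamer was present in 6.63% of all windows and, among the 6 genes with a window, in FAS. A match is a description of the letters, not evidence of binding, and no match says only that the letters are not in that window.

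Reads assigned to genes numbered 3914513 to 5900955 in a library, and the 9 genes had 52 to 4236 reads each. The CD28 shRNA library had the fewest reads in genes in each background, 3914513 to 4577443, and the part of depth in the results below was not tested. CD28 mRNA stood at 71.7% ± 7.14 of the Vec level under CD28 shRNA, CD86 at 54.9% ± 18.5 under CD86 shRNA, and GAPDH at 32.7% ± 21.2 under Gapdh shRNA (SD, n = 3 lines without RPMI8226-Mcl1). In RPMI8226-Mcl1 the same values were 67.5%, 49.4% and 21.3%. CD86 mRNA was also at 190% ± 81.6 of Vec under CD28 shRNA and at 145% ± 54.7 under Gapdh shRNA (SD, n = 3 lines). In RPMI8226-Mcl1 it was at 211% and 94.2%. CD86 had as few as 18 reads in a library, and the part of its level in the CD28 shRNA results was not tested. Plasma cell markers had medians of 26.3 to 163 FPKM per library, while T cell, myeloid and stromal markers had medians of 0 to 0.0897, 0 to 0.146 and 0. The labels name no separate cultures, so the replicates are lines or libraries of 1 line, and RPMI8226-Mcl1 is a single derived line. In tests per shRNA and between backgrounds, the spread behind each p-value mixes library noise with differences between backgrounds in their response to the shRNAs. In tests of differences in response, it is the spread between Vec and Gapdh shRNA libraries. No p-value measures the spread between repeat cultures of 1 combination.

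Baseline levels were compared between lines first, over the 4 libraries of each line, with a term for shRNA. In MM.1s against RPMI8226, 8 of the 9 target genes passed the limma test at an adjusted p under 0.05, where 69.1% of all tested genes did. Higher were 6, CDKN1A, MDM2, TP53INP1, BTG2, FAS and GADD45A, and lower were 2, ZMAT3 and RRM2B, where 35.9% of all genes were higher and 33.2% lower. On the log2(FPKM + 1) scale, which all log2 differences below use, the median difference of the 9 was 0.58, beside 0.03 over all tested genes, and CCNG1, a cyclin G that takes part in p53 feedback, was at -0.03 (limma adjusted p = 0.846). With most genes called, the count by itself sets these targets little apart from other genes. The share of all genes whose ranges are separate between backgrounds is not given, so separate ranges below do not set a gene apart.

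CDKN1A encodes p21, the inhibitor of cyclin-dependent kinases through which p53 stops the cell cycle. Its level was 35.9, 20.1, 21.3 and 18.3 FPKM in MM.1s under CD28, CD86 and Gapdh shRNA and Vec. In KMS18 it was 10.8, 3.74, 7.82 and 6.75 FPKM, and in RPMI8226 9.32, 12.5, 14.3 and 13.2 FPKM. Every MM.1s library was above every library of the other lines, while those of KMS18 and RPMI8226 overlapped. The mean in MM.1s was 23.9 ± 8.08 FPKM, against 12.3 ± 2.15 FPKM in RPMI8226 (SD, 4 libraries each), a log2 difference of 0.87 (SE 0.23, limma adjusted p = 0.0064). The CD28 shRNA library was the highest in MM.1s and the lowest in RPMI8226, which the term for shRNA does not take out. With the Vec and Gapdh shRNA libraries alone, the means were closer, at 19.8 FPKM in MM.1s and 13.8 FPKM in RPMI8226.

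MDM2 showed the same order with a narrower spread in MM.1s. It stood at 30.8, 24.7, 30.2 and 29.3 FPKM in MM.1s, at 7.14, 5.54, 7.82 and 6.58 FPKM in KMS18 and at 16.04, 7.43, 9.34 and 7.99 FPKM in RPMI8226. The lowest MM.1s library was above the highest of any other background. The difference between MM.1s and RPMI8226 was 1.46 (SE 0.14, limma adjusted p = 3.38e-06), and between KMS18 and RPMI8226 -0.48 (limma adjusted p = 0.00992). With the Vec and Gapdh shRNA libraries alone, the KMS18 difference was -0.24 (limma adjusted p = 0.109). MDM4, the relative of MDM2 that blocks p53 activity without destroying it, was lower in MM.1s, at 3.99 ± 0.372 FPKM, against 5.58 ± 0.832 FPKM in RPMI8226 (SD, 4 libraries each; log2 -0.39, limma adjusted p = 0.00474).

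**Figure D1:**
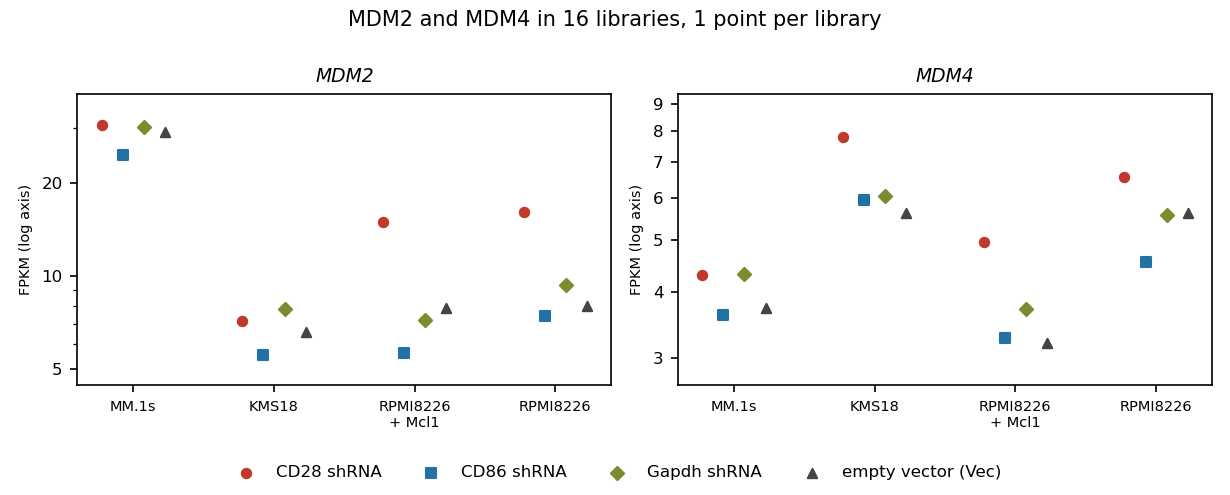
FPKM on a log axis of MDM2 and MDM4 in each of the 16 libraries, grouped by background, with 1 symbol per shRNA. MDM2 is highest in the 4 MM.1s libraries, and in RPMI8226-Mcl1 and RPMI8226 the CD28 shRNA library has the highest MDM2, at 14.98 and 16.04 FPKM.

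The death-linked targets did not share one order. TP53INP1, a nuclear protein that helps p53 promote cell death, averaged 35.5 ± 5.32 FPKM in MM.1s and 36.0 ± 10.9 FPKM in KMS18, against 16.1 ± 4.80 FPKM in RPMI8226 (SD, 4 libraries each). It was higher by 1.13 in MM.1s (limma adjusted p = 0.000649) and by 1.11 in KMS18 (limma adjusted p = 0.00071). Between MM.1s and KMS18 it was at 0.02 (limma adjusted p = 0.935), but with the Vec and Gapdh shRNA libraries alone it was higher in MM.1s by 0.50 (limma adjusted p = 0.0224). FAS, the death receptor for Fas ligand, was at 10.8, 5.47, 3.87 and 3.94 FPKM in MM.1s and at 4.69, 3.43, 3.10 and 2.56 FPKM in RPMI8226, with overlapping ranges. Its difference of 0.58 passed in all libraries (limma adjusted p = 0.0377) and not with the Vec and Gapdh shRNA libraries alone (0.36, limma adjusted p = 0.0734), nor without the CD86 shRNA, Gapdh shRNA or Vec libraries in turn (0.59 to 0.69).

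Among the backgrounds KMS18 had the lowest GADD45A. This stress sensor, which promotes arrest and DNA repair, was at 10.9, 11.2, 13.5 and 12.3 FPKM in KMS18 under CD28, CD86 and Gapdh shRNA and Vec. In MM.1s it was at 38.6, 60.1, 45.0 and 57.5 FPKM, and in RPMI8226 at 33.6, 47.0, 43.4 and 38.7 FPKM. All KMS18 libraries lay below all others, a log2 difference from RPMI8226 of -1.68 (SE 0.11, limma adjusted p = 1.4e-07), whereas the MM.1s and RPMI8226 ranges overlapped. The MM.1s difference of 0.29 (limma adjusted p = 0.0401) did not pass with the CD28, CD86 or Vec libraries left out in turn, with the highest limma adjusted p = 0.229 without Vec. BTG2, an anti-proliferative gene that acts on mRNA decay, had the highest mean of the 9 in MM.1s, KMS18 and RPMI8226. In RPMI8226-Mcl1 it averaged 56.4 FPKM, below GADD45A at 82.8 FPKM. The BTG2 mean was 185 ± 39.6 FPKM in MM.1s and 230.5 ± 41.3 FPKM in KMS18, against 111 ± 6.47 FPKM in RPMI8226 (SD, 4 libraries each). It was higher by 0.71 in MM.1s (limma adjusted p = 0.000366) and by 1.04 in KMS18 (limma adjusted p = 1.84e-05).

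ZMAT3 and RRM2B ran against CDKN1A and MDM2 in MM.1s. ZMAT3 encodes an RNA-binding zinc finger protein that affects splicing and mRNA stability. It averaged 2.39 ± 1.35 FPKM in MM.1s and 2.76 ± 0.976 FPKM in KMS18, against 6.47 ± 1.60 FPKM in RPMI8226 (SD, 4 libraries each). The log2 differences from RPMI8226 were -1.19 in MM.1s (limma adjusted p = 5.4e-06) and -0.998 in KMS18 (limma adjusted p = 1.9e-05). RRM2B, the p53-inducible subunit of ribonucleotide reductase that supplies nucleotides for repair, was at 5.90, 5.52, 4.80 and 4.39 FPKM in MM.1s. In KMS18 it was at 15.9, 15.2, 14.1 and 15.7 FPKM, and in RPMI8226 at 16.5, 13.4, 14.9 and 14.8 FPKM. MM.1s was thus lower than RPMI8226 by a factor of 2.90 in mean FPKM (log2 -1.37, SE 0.094, limma adjusted p = 2.14e-07), and KMS18 did not pass the test (0.03, limma adjusted p = 0.789).

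In KMS18 against RPMI8226, 7 of the 9 passed, where 70.3% of all tested genes did. Higher were BTG2 and TP53INP1, and lower were CDKN1A, MDM2, ZMAT3, GADD45A and CCNG1, where 35.2% of all genes were higher and 35.1% lower. The CDKN1A difference was -0.75 (limma adjusted p = 0.0139), which did not pass without the CD86 shRNA libraries (-0.49, limma adjusted p = 0.0984), nor without those of Gapdh shRNA or Vec. CCNG1, at -0.30 (limma adjusted p = 0.0298), did not pass without the Gapdh shRNA libraries (-0.23, limma adjusted p = 0.13) or without those of Vec.

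MM.1s and KMS18 differed in 6 of the 9 genes, where 65.3% of all tested genes passed, 34.5% higher and 30.8% lower. CDKN1A was higher in MM.1s by 1.61 (limma adjusted p = 0.000101), MDM2 by 1.94 (limma adjusted p = 4.03e-07) and GADD45A by 1.97 (limma adjusted p = 6.57e-08). RRM2B was lower (-1.40, limma adjusted p = 2.34e-07). BTG2 at -0.32 and CCNG1 at 0.27 passed narrowly, and neither passed with the Vec and Gapdh shRNA libraries alone.

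**Figure D2:**
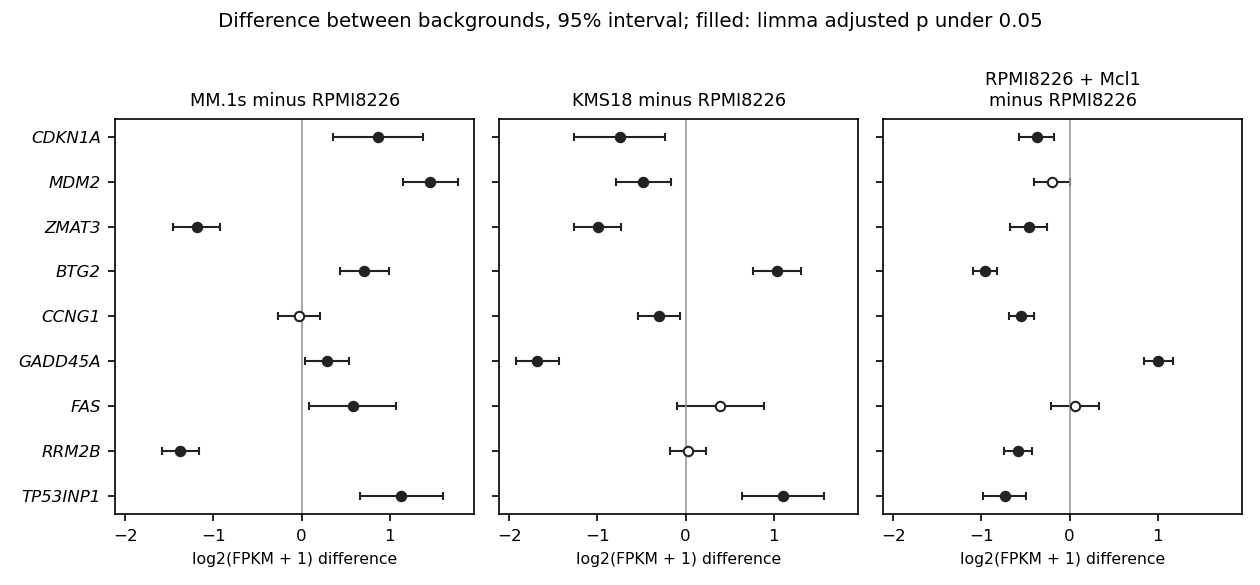
Differences in log2(FPKM + 1) of the 9 genes between backgrounds, with 95% intervals and filled points where the limma adjusted p was under 0.05. Against RPMI8226, MDM2 is higher in MM.1s (1.46), GADD45A lower in KMS18 (-1.68), and 6 of the 9 genes lower in RPMI8226-Mcl1.

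RPMI8226 overexpressing Mcl1 was compared with its parent line over 8 libraries, with a term for shRNA. MCL1 mRNA averaged 149.6 ± 24.1 FPKM in RPMI8226-Mcl1, against 54.5 ± 5.82 FPKM in RPMI8226 (SD, 4 libraries each; log2 1.43, limma adjusted p = 4e-05). Of the 9 targets 7 passed the limma test, 6 lower and 1 higher, where 14.9% of all tested genes were lower and 19.5% higher, 34.4% in either direction. The median difference of the 9 was -0.46, beside 0.03 over all tested genes.

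BTG2 was at 63.1, 53.6, 51.9 and 56.9 FPKM in RPMI8226-Mcl1 under CD28, CD86 and Gapdh shRNA and Vec, against 112, 101, 116 and 113 FPKM in RPMI8226. CCNG1 was at 18.5, 16.9, 16.6 and 17.1 FPKM in RPMI8226-Mcl1, against 25.7, 23.8, 26.6 and 26.6 FPKM in RPMI8226. For both, all libraries of RPMI8226-Mcl1 lay below all libraries of the parent line, with log2 differences of -0.96 (limma adjusted p = 3.98e-05) and -0.55 (limma adjusted p = 0.000587). RRM2B followed at -0.59 (limma adjusted p = 0.000658), with separate ranges. How many of all genes had separate ranges in this comparison is not given. TP53INP1 at -0.73 (limma adjusted p = 0.00167), ZMAT3 at -0.46 (limma adjusted p = 0.00662) and CDKN1A at -0.37 (limma adjusted p = 0.0132) passed while their ranges overlapped, and these 3 did not pass without the shRNA term, nor CDKN1A without the Gapdh shRNA libraries (-0.36, limma adjusted p = 0.0533).

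GADD45A was the exception in direction. It stood at 67.5, 86.3, 82.9 and 94.3 FPKM in RPMI8226-Mcl1, against 33.6, 47.0, 43.4 and 38.7 FPKM in RPMI8226, a log2 difference of 1.01 (SE 0.069, limma adjusted p = 7.35e-05). Every RPMI8226-Mcl1 library was above every RPMI8226 library. MDM2 was at -0.20 (limma adjusted p = 0.116) and FAS at 0.06 (limma adjusted p = 0.711). The 6 myeloid markers summed to 1.58 to 3.54 FPKM in RPMI8226-Mcl1, against 0.161 to 0.446 FPKM in RPMI8226. ITGAM, named after its value was seen, was higher by 1.57. It reached the filter on low values through its RPMI8226-Mcl1 libraries, so its direction was largely set by that filter and supports nothing. From 2 to 5 of the 6 were at 0 in RPMI8226-Mcl1. Of the plasma cell markers MZB1 (-0.81) and TNFRSF17 (-0.49) were lower and CD38 (0.70) and SDC1 (0.24) higher, also named after their values were seen. The part of these markers in the results was not tested. Which of these differences come with Mcl1 and which with the derivation of the line cannot be told apart.

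**Figure D3:**
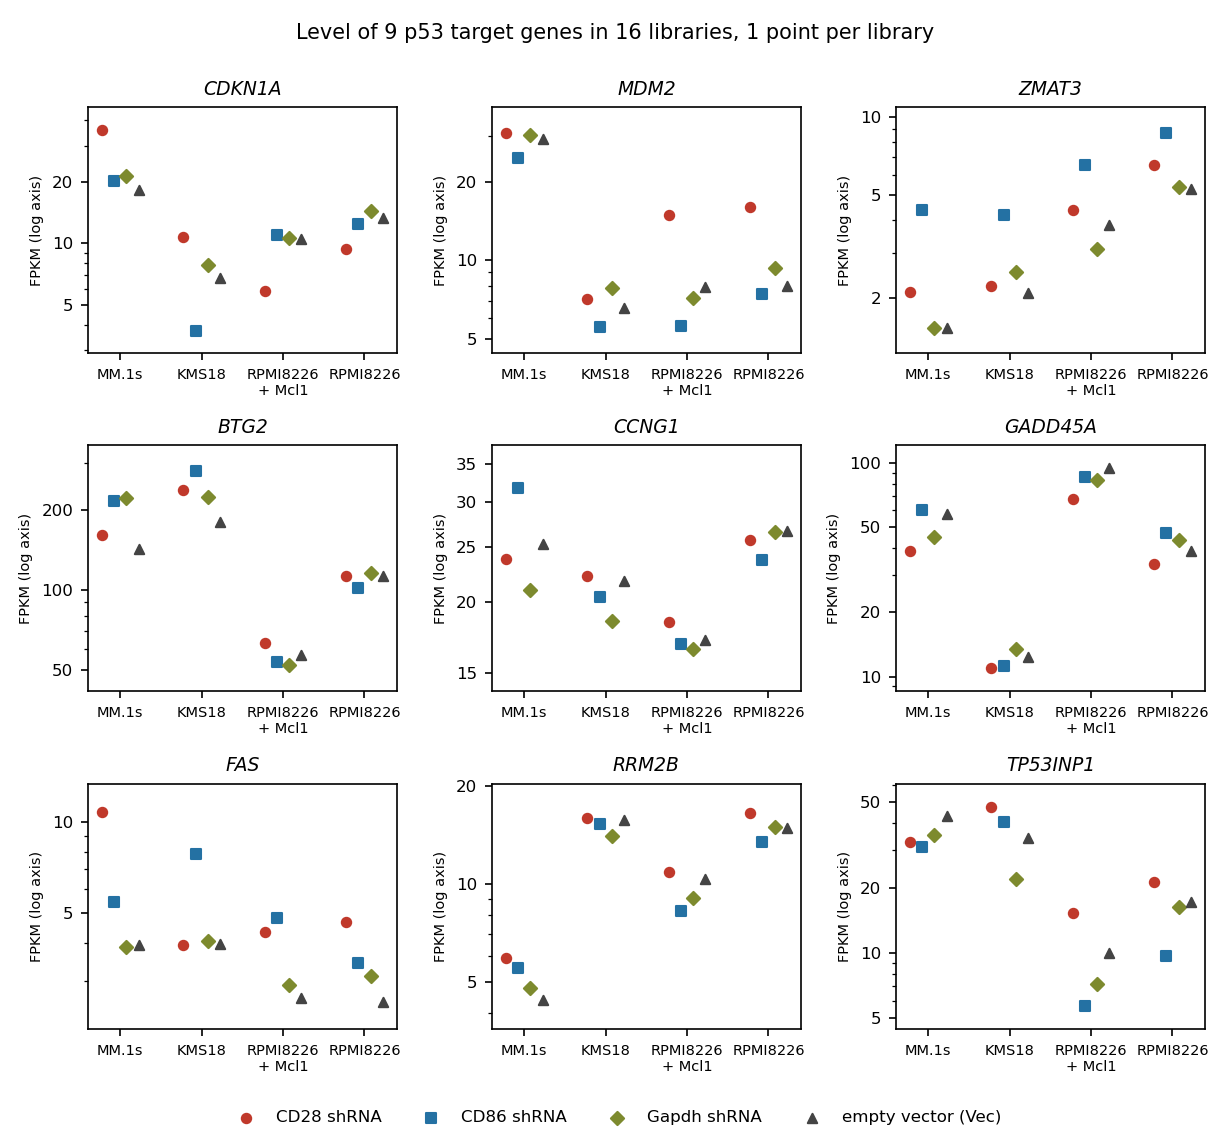
FPKM on a log axis of the 9 target genes in each of the 16 libraries, grouped by background, with 1 symbol per shRNA. GADD45A is highest in RPMI8226-Mcl1 (67.5 to 94.3 FPKM) and lowest in KMS18 (10.9 to 13.5 FPKM), and ZMAT3 is highest under CD86 shRNA in all 4 backgrounds.

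Among 29 other p53 targets, 27 were tested in the 3 parental lines. In MM.1s against RPMI8226, 11 were higher and 7 lower, with a median of 0.12 beside 0.03 over all genes and calls for 69.1% of them, close to the 66.7% of the list. The lowest adjusted p-values belonged to the death receptor EDA2R (2.61), the kinase PLK2 (3.52), the oxidoreductase TP53I3 (1.99) and the translesion polymerase POLH (1.11), all higher in MM.1s. EDA2R, PLK2 and TP53I3 reached the filter mainly through their MM.1s libraries, so their direction here, and that of PLK2 in MM.1s against KMS18, was largely set by that filter and supports nothing. EDA2R averaged 6.94 ± 1.04 FPKM in MM.1s, against 0.296 ± 0.0714 FPKM in RPMI8226 (SD, 4 libraries each). In KMS18 against RPMI8226, 10 were higher and 13 lower (median -0.30), beside 35.2% higher and 35.1% lower over all genes, among them CYFIP2 (-2.13), the DNA damage sensor DDB2 (-1.55), RPS27L (-1.46) and the BH3-only gene PMAIP1 (1.61). MM.1s against KMS18 had 15 higher and 3 lower (median 0.64), beside 34.5% and 30.8% over all genes, among them PLK2 (2.997), CYFIP2 (2.24), RPS27L (1.39) and PMAIP1 (-2.59). Of 24 tested in RPMI8226-Mcl1 against RPMI8226, 6 were higher and 4 lower, beside 19.5% and 14.9% over all genes, with CYFIP2 (-1.78), TRIM22 (-0.74), SESN1 (-0.64) and PMAIP1 (0.89) having the lowest adjusted p-values.

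Of 17 relatives and regulators of p53, 15 were tested. CDKN2A, whose alternative product ARF holds MDM2 in check, averaged 0.0775 FPKM in MM.1s, with at most 0.169 FPKM in a library, against 82.6 FPKM in KMS18 and 68.3 FPKM in RPMI8226. In MM.1s against RPMI8226, 3 of the 15 were higher and 7 lower, among them the kinase HIPK2 (1.80), the damage kinase ATM (-1.44) and the ribosomal protein RPL5 (-0.92), which binds MDM2. KMS18 against RPMI8226 had 3 higher and 5 lower, and RPMI8226-Mcl1 against RPMI8226 3 higher and 3 lower. The shares called were 66.7%, 53.3% and 40.0%, beside 69.1%, 70.3% and 34.4% of all tested genes. MM.1s against KMS18 had 4 higher and 9 lower, beside 34.5% and 30.8% over all genes. The share called there was 86.7%, beside 65.3% of all tested genes. Of 15 cell cycle genes that p53 represses through p21, 8 were higher and 1 lower in MM.1s against RPMI8226, among them CCNA2 (1.29), AURKB (1.03), CDK1 (1.02) and CDC25A (0.91). In KMS18 4 were higher and 7 lower, and in RPMI8226-Mcl1 8 were higher and 2 lower, each against RPMI8226. These were 9 of 15 in MM.1s, 73.3% in KMS18 and 66.7% in RPMI8226-Mcl1, beside 69.1%, 70.3% and 34.4% of all tested genes. In MM.1s against KMS18, 10 of the 15 cell cycle genes were higher and 1 lower, beside 34.5% and 30.8% over all genes. The share called was 73.3%, beside 65.3% of all tested genes.

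The change per shRNA was then taken over the 3 parental lines with a term for line, so that each line contributed 1 library per shRNA. The 3 comparisons with Vec share the Vec libraries. Gapdh shRNA gives the spread between controls. Over 36 pairs of a gene and a background, the Gapdh shRNA and Vec levels differed by a ratio of 1.00 to 1.55 (median 1.12). Gapdh shRNA against Vec called 0 of the 9 genes and 0 of all tested genes (limma, 1 of the 9 and 402 of all at an unadjusted p under 0.05; voom also 0 of the 9). The share of all genes that lie above or below both controls, or the other shRNA, in every background is not given. Such positions below therefore do not set a gene apart. In bulk RNA, a change in the share of cells that express a gene and a change per cell cannot be told apart.

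ZMAT3 rose under CD86 shRNA. Its level was 4.37 FPKM with CD86 shRNA against 1.54 FPKM with Vec in MM.1s, 4.20 against 2.09 FPKM in KMS18, 6.52 against 3.84 FPKM in RPMI8226-Mcl1 and 8.71 against 5.26 FPKM in RPMI8226. In all 4 backgrounds the CD86 shRNA library was above both controls and above the CD28 shRNA library. These values rest on 214 to 546 reads under CD86 shRNA and 80 to 344 under Vec. Relative to Vec, ZMAT3 was at 217% ± 60.6 over the 3 lines (SD, n = 3), and its log2(FPKM + 1) rose by 0.82 (SE 0.14, limma adjusted p = 0.031). It was the 1 gene of the 9 that passed, where 0.627% of all tested genes did, 0.0619% in the higher direction and 0.566% in the lower. The call did not hold without any 1 of the lines, with 0.69 without MM.1s (limma adjusted p = 0.211), 0.86 without KMS18 (limma adjusted p = 0.283) and 0.92 without RPMI8226 (limma adjusted p = 0.134). It was also lost with a pseudocount of 0.1 (1.05, limma adjusted p = 0.0533) and with no filter on low values (limma adjusted p = 0.0862), and kept with voom on recovered reads (0.98, adjusted p = 0.00718).

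Under CD86 shRNA the cell surface plasma cell marker SDC1 (-1.11, limma adjusted p = 0.0106) and the chaperone MZB1 (-0.47, limma adjusted p = 0.0171) fell too, 2 of 8 plasma cell markers, whose median was -0.43. They were named after their values were seen, and their part in the ZMAT3 result was not tested. The authors' deposited table gives ZMAT3 a log2 change of 1.03 for CD86 shRNA against Vec with a false discovery rate of 2.25e-06.

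FAS lay above both controls under CD86 shRNA in all 4 backgrounds. It was at 5.47 FPKM with CD86 shRNA against 3.94 FPKM with Vec in MM.1s, 7.86 against 3.96 FPKM in KMS18, 4.83 against 2.63 FPKM in RPMI8226-Mcl1 and 3.43 against 2.56 FPKM in RPMI8226. Its log2 change over the 3 lines was 0.52 (95% interval -0.05 to 1.08, limma adjusted p = 0.437), so it did not pass. MDM2 lay below both controls under CD86 shRNA in all 4 backgrounds, at 84.3% of Vec in MM.1s, 84.1% in KMS18, 71.4% in RPMI8226-Mcl1 and 93.1% in RPMI8226. Its log2 change was -0.18 (95% interval -0.54 to 0.17, limma adjusted p = 0.676).

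The other 6 genes did not pass under CD86 shRNA, and their log2 changes were between -0.33 for TP53INP1 and 0.36 for BTG2. CDKN1A was at 110% of Vec in MM.1s, 55.4% in KMS18, 105% in RPMI8226-Mcl1 and 94.1% in RPMI8226.

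CD28 shRNA against Vec called 0 of the 9 genes, where 2.83% of all tested genes passed (limma; 3 of the 9 and 2240 of 11316 genes at an unadjusted p under 0.05; voom also 0 of the 9). Several genes nevertheless had CD28 shRNA libraries far from Vec in some lines, and the lines went different ways. CDKN1A was at 35.9 FPKM with CD28 shRNA against 18.3 FPKM with Vec in MM.1s and at 10.8 against 6.75 FPKM in KMS18. In RPMI8226-Mcl1 it was at 5.83 against 10.4 FPKM, and in RPMI8226 at 9.32 against 13.2 FPKM. The CD28 shRNA library was thus above both controls in MM.1s and KMS18 and below both in the RPMI8226 backgrounds, and the change over the 3 lines was 0.36 (95% interval -0.24 to 0.95, limma adjusted p = 0.51). The 6 T cell markers summed to 4.26 FPKM with CD28 shRNA against 0.707 FPKM with Vec in MM.1s, 7.56 against 2.38 FPKM in KMS18, 2.85 against 2.37 FPKM in RPMI8226-Mcl1 and 3.02 against 2.12 FPKM in RPMI8226. In each CD28 shRNA library 3 or 4 of the 6 were at 0, and the part of these markers in the CD28 shRNA values was not tested.

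MDM2 showed the reverse division. It was at 105% of Vec with CD28 shRNA in MM.1s and 108% in KMS18, but at 190% in RPMI8226-Mcl1, with 14.98 against 7.88 FPKM, and at 201% in RPMI8226, with 16.04 against 7.99 FPKM. The change over the 3 parental lines was 0.37 (95% interval 0.01 to 0.72, limma adjusted p = 0.241), and 0.09 without RPMI8226 (limma adjusted p = 0.785). RPMI8226-Mcl1 was derived from RPMI8226, so the agreement of the pair is not that of independent lines.

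FAS was at 10.8 FPKM with CD28 shRNA against 3.94 FPKM with Vec in MM.1s, 3.94 against 3.96 FPKM in KMS18, 4.33 against 2.63 FPKM in RPMI8226-Mcl1 and 4.69 against 2.56 FPKM in RPMI8226. The CD28 shRNA library was above both controls in 3 backgrounds and below both in KMS18, and the change was 0.64 (95% interval 0.08 to 1.21, limma adjusted p = 0.197). In the authors' deposited table FAS has a log2 change of 0.87 with a false discovery rate of 0.018 for this comparison. GADD45A was below both controls in all 4 backgrounds, at 67.1% of Vec in MM.1s, 89.0% in KMS18, 71.6% in RPMI8226-Mcl1 and 86.8% in RPMI8226. Its change of -0.31 (95% interval -0.59 to -0.02, limma adjusted p = 0.222) did not pass. It passed in the fit of all 16 libraries (-0.35, limma adjusted p = 0.0441), which counts RPMI8226-Mcl1 as a line independent of its parent. RRM2B was above both controls in all 4 backgrounds, with a change of 0.17 (limma adjusted p = 0.415).

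**Figure D4:**
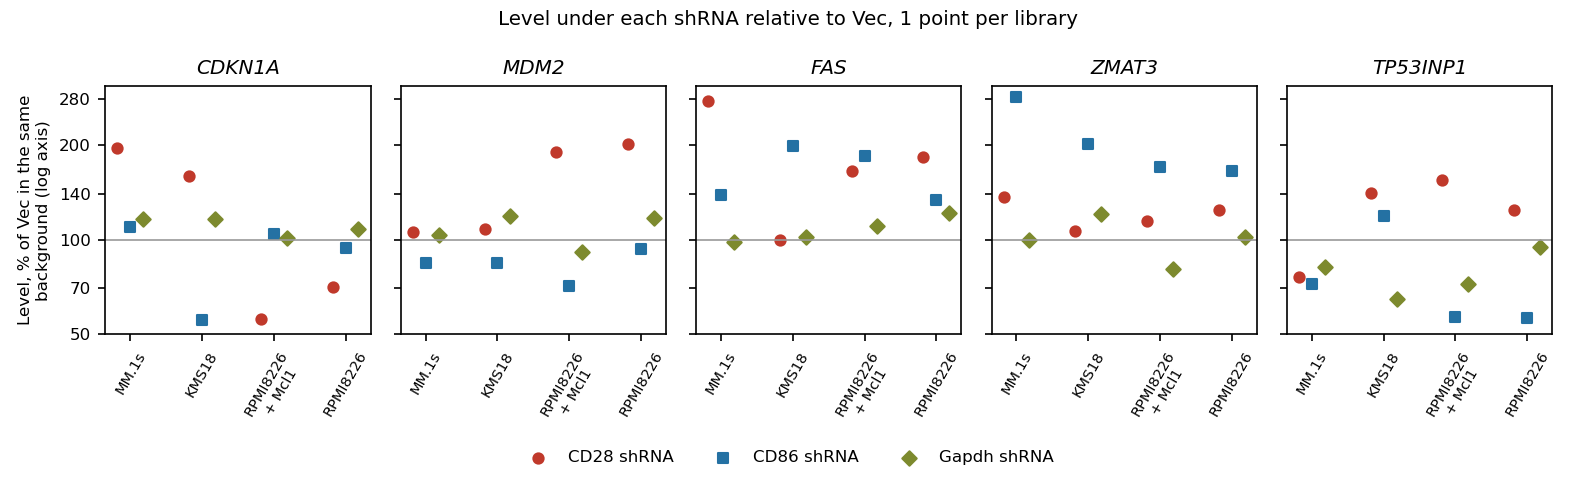
Level of CDKN1A, MDM2, FAS, ZMAT3 and TP53INP1 under each shRNA as a percentage of the Vec library of the same background, 1 point per library. Under CD28 shRNA, CDKN1A is at 196% in MM.1s and 70.5% in RPMI8226, MDM2 at 105% and 201%, and under CD86 shRNA ZMAT3 is above 100% in every background.

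The differences between lines in the response to an shRNA were tested directly, with the Vec and Gapdh shRNA libraries of a background as its controls and a spread taken from those pairs. None of the 9 genes passed (limma, 0% of all tested genes for the CD28 response in MM.1s or KMS18 against RPMI8226 and for the CD86 response in KMS18, and 0.00881% for the CD86 response in MM.1s). At an unadjusted p under 0.05 there were 3 of the 9 for the CD28 response in MM.1s, 3 in KMS18, and for the CD86 response 1 in MM.1s and 3 in KMS18, each against RPMI8226. Over all 11349 genes the counts at that level were 1325, 1046, 1207 and 994 in the same order. Each response rests on 1 shRNA library per line, and the test assumes that it varies as the control libraries do. The response of CDKN1A to CD28 shRNA was greater in MM.1s than in RPMI8226 by 1.35 (95% interval 0.87 to 1.82, limma adjusted p = 0.0938). It was greater in KMS18 than in RPMI8226 by 1.02 (SE 0.21, limma adjusted p = 0.277). The MM.1s difference passed with no filter on low values (1.35, limma adjusted p = 0.0285) and with voom on recovered reads (1.41, adjusted p = 0.0318), settings that called 481 of 18456 and 25 of 11349 genes where the fit reported called 0. In the other 3 differences voom called 0 of the 9.

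The response of MDM2 to CD28 shRNA differed from that in RPMI8226 by -0.77 in MM.1s (95% interval -1.26 to -0.28, limma adjusted p = 0.271) and by -0.83 in KMS18 (95% interval -1.32 to -0.34, limma adjusted p = 0.365). For the CD86 response, TP53INP1 differed by 1.27 in KMS18 (95% interval 0.43 to 2.11, limma adjusted p = 0.398). It was at 144% of the mean of both controls in KMS18 and 58.1% in RPMI8226, and at 119% and 56.5% of Vec alone. The KMS18 controls were themselves apart, at 34.0 FPKM with Vec and 22.0 FPKM with Gapdh shRNA. ZMAT3 had responses to CD86 shRNA that differed from RPMI8226 by 0.46 in MM.1s (95% interval -0.10 to 1.02) and 0.03 in KMS18 (95% interval -0.52 to 0.59).

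CD86 shRNA and CD28 shRNA were also set against each other in the 3 parental lines, where 1 of the 9 genes passed and 9.51% of all tested genes did, 5.41% higher and 4.10% lower. ZMAT3 was higher under CD86 shRNA by 0.61 (SE 0.14, limma adjusted p = 0.0234). This call too did not hold when any 1 line was left out, with limma adjusted p = 0.136 without MM.1s, 0.146 without KMS18 and 0.0739 without RPMI8226. MDM2 was below its CD28 shRNA level in all 4 backgrounds, with -0.55 over the 3 parental lines (95% interval -0.90 to -0.19, limma adjusted p = 0.0586). It passed in the fit of all 16 libraries (-0.73, limma adjusted p = 0.00676), which counts RPMI8226-Mcl1 as a line independent of its parent. CDKN1A was at -0.58 (limma adjusted p = 0.199), and at -1.06 without RPMI8226 (limma adjusted p = 0.0334). Of the 9 genes, 3 in the authors' deposited table are under a false discovery rate of 0.05 for this comparison, ZMAT3 (0.74), MDM2 (-0.65) and TP53INP1 (-0.50). Of all 14975 genes tested there, 10.3% are under it.

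**Figure D5:**
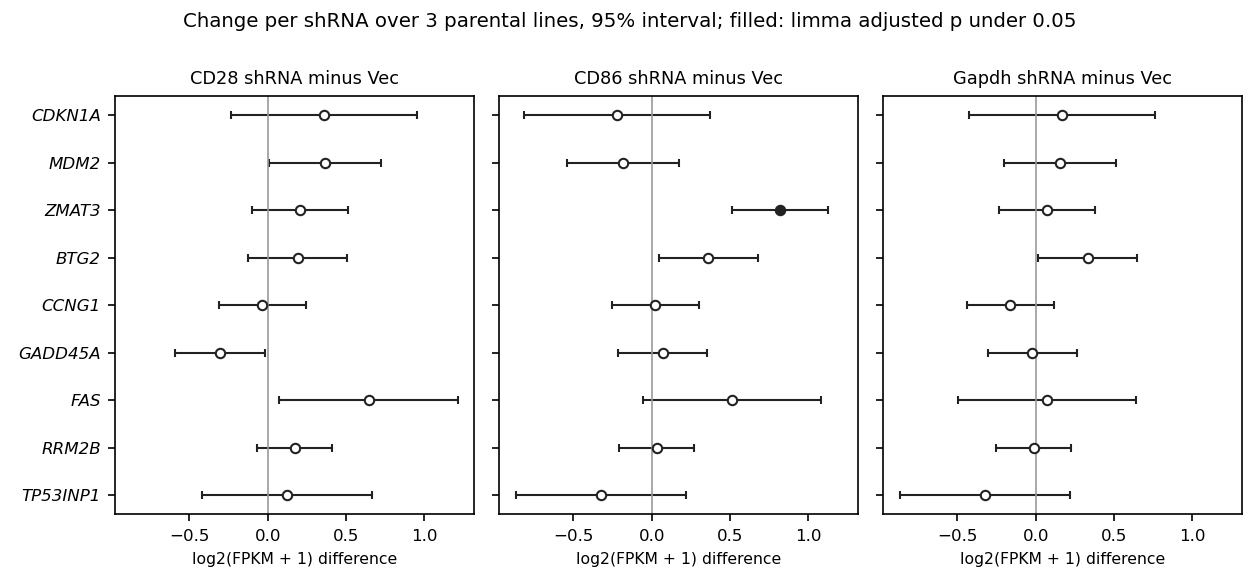
Change in log2(FPKM + 1) of the 9 genes per shRNA against Vec over 3 parental lines, with 95% intervals and filled points where the limma adjusted p was under 0.05. ZMAT3 under CD86 shRNA (0.82) is the filled point, and the Gapdh shRNA panel gives the spread between controls.

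Of the 27 other p53 targets tested, 0 passed under CD28 shRNA (median 0.10, beside -0.0030 over all genes), 0 under CD86 shRNA (median 0.12, beside 0.02) and 0 under Gapdh shRNA, all against Vec. None of the 15 relatives and regulators and none of the 15 cell cycle genes passed against Vec under any shRNA. Over all tested genes 2.83% passed under CD28, 0.627% under CD86 and 0% under Gapdh shRNA, so that counts of 0 in lists of this size do not set them apart. Between CD86 and CD28 shRNA, the glycolysis regulator TIGAR (0.76, limma adjusted p = 0.0111) and RPS27L (0.51, limma adjusted p = 0.0263) were higher under CD86 shRNA and DDB2 (-0.50, limma adjusted p = 0.0254) lower. TIGAR lay near the filter of 1 FPKM, with means of 1.32 FPKM in MM.1s, 2.13 FPKM in KMS18 and 1.66 FPKM in RPMI8226. Of the cell cycle genes in that comparison, AURKB was higher (0.52) and CKS1B lower (-0.49). These are 11.1% of the other targets and 13.3% of the cell cycle genes, beside 9.51% of all tested genes. In the same comparison the plasma cell markers SDC1 (-1.25), CD38 (-1.04) and MZB1 (-0.47), 3 of 8, and the T cell marker CD3E (-1.24) were lower under CD86 shRNA, named after their values were seen, and their part in the results was not tested.

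The genes most like CDKN1A over the 16 libraries, by Pearson r of log2(FPKM + 1) among 11349 genes, were NABP1 (0.93), GHITM (0.92), SH3TC1 (0.92), MYCL (0.91) and DUSP4 (0.90). Those most like ZMAT3 were TXNDC17 (0.92), PIGF (0.90), FAM60A (0.90), GCLC (0.90) and RPLP0 (0.89). The 16 points share 4 backgrounds, no correlation within a line was computed, and the values describe these libraries only.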

How the data were processed

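RNA-seq of 16 myeloma libraries was used. The authors deposited 1 table with FPKM values for 23459 genes, exon lengths, and the results of their own 3 comparisons (log2 fold change, p-value, false discovery rate). A likelihood ratio score per gene that the authors deposited, per the file headers, was not used. Per the submitters' processing notes the tools included edgeR 3.12.1, R 3.2.2, TopHat2 2.0.13 and Picard, and the builds named are mm9, hg19 and GRCh37, without roles. For the strand setting, nothing is stated. The name given to the authors' deposited results marks Gapdh and RPMI8226-Mcl1 as excluded, but the libraries in their tests are not listed. All sample columns were used, so 0 were left out.

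Tests were made with limma 3.58.1 (R 4.3.3; eBayes, trended) on log2(FPKM + 1) of genes averaging 1 FPKM or more, with Benjamini-Hochberg adjustment over all of them, a threshold of 0.05 and two-sided tests. This scale understates changes of genes with low values. The comparisons per shRNA and between parental lines used 12 libraries with terms for line and shRNA (6 residual degrees of freedom), the RPMI8226-Mcl1 comparison 8 libraries with a term for shRNA (3), and differences in response all 16 (4). The libraries of a line are paired through that line, which received every construct. FPKM times exon length gave whole reads for 100% of values (tolerance 0.02 of a read). They were used for depth and for voom. Both mates of a read pair probably added to the count, so independent fragments are fewer than reads. The code was tested on simulated data.

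Alternatives changed the pseudocount (0.1), the filter, the scaling, the model, the block, the controls and the libraries. Named were the 9 genes, MDM4, the targeted genes and MCL1 whatever their result, per list and comparison up to 4 genes past the threshold with the lowest adjusted p, and the 5 genes most like CDKN1A and ZMAT3. The genes, lists and tests were chosen with earlier results of these data known. RefSeq promoter windows are of GRCh38.p14. Exon overlaps are from GENCODE, and without strand information reads in bases shared by genes on opposite strands cannot be assigned. One gene of the naming rule is not reported here.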

Additional observations from a re-analysis of the deposited data

How the results depend on the processing

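All alternatives were listed as planned, although the tests were chosen with earlier results of these data known. Of the values of single genes, 178 of 180 for differences in response, 300 of 351 between lines and 309 of 342 per shRNA kept their direction and their side of the threshold. The counts of the 9 genes called moved as follows. The CD28 response in MM.1s against RPMI8226 had 1 call with no filter and 1 with voom, in place of 0. CD28 shRNA against Vec had 1 with all 16 libraries, in place of 0. Fits per shRNA of all 16 libraries count RPMI8226-Mcl1 as a line beside its parent, so their lines are not independent. CD86 shRNA against Vec had 1, and 0 with no filter, 0 with a pseudocount of 0.1, 0 with no replicate block and 0 to 0 when a line was left out. CD86 against CD28 shRNA had 1, and 4 with all 16 libraries, 2 with the median of ratios, 2 with voom, 0 with no filter, 0 with no replicate block and 0 to 1 when a line was left out. RPMI8226-Mcl1 against RPMI8226 had 7, and 4 with no replicate block. Leaving out each shRNA gave 6 to 7 there, 6 to 7 for MM.1s against RPMI8226 (8), 5 to 8 for KMS18 against RPMI8226 (7) and 4 to 5 for MM.1s against KMS18 (6), and with no replicate block these 3 line counts were 6, 7 and 4. They were 6, 7 and 5 with the median of ratios, 6, 7 and 4 with no filter and 6, 6 and 5 with controls only, with FAS and GADD45A in MM.1s against RPMI8226 lost in each. Voom gave 8 for RPMI8226-Mcl1, adding MDM2 (adjusted p = 0.0185).

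Genes that changed sign had not passed the test in the fit reported. With a line left out, TP53INP1 under CD28 shRNA ran from -0.048 (without KMS18) to 0.38. Under CD86 shRNA against Vec, CCNG1 ran from -0.12 (without MM.1s) to 0.12, RRM2B from -0.087 (without MM.1s) to 0.12, CDKN1A from -0.40 to 0.024 (without KMS18) and GADD45A from -0.033 (without RPMI8226) to 0.17. Between CD86 and CD28 shRNA, CCNG1 ran from -0.11 (without MM.1s) to 0.14 and FAS from -0.61 to 0.24 (without MM.1s). Under Gapdh shRNA, GADD45A ran from -0.11 to 0.14 (without MM.1s) and RRM2B from -0.072 to 0.056 (without KMS18). With an shRNA left out, RRM2B in KMS18 against RPMI8226 ran from -0.017 (without CD86) to 0.066, CCNG1 in MM.1s against RPMI8226 from -0.17 to 0.075 (without Gapdh, 0.0014 without CD28), and FAS in RPMI8226-Mcl1 from -0.048 (without CD86) to 0.12. For MM.1s against KMS18, FAS ran from -0.17 (without CD28) to 0.40 and TP53INP1 from -0.19 (without Gapdh, -0.079 without Vec) to 0.21, and TP53INP1 passed with controls only (0.50, limma adjusted p = 0.0224). With all 16 libraries, CCNG1 under CD28 shRNA was at 0.00090, RRM2B under CD86 shRNA at -0.048 and ZMAT3 under Gapdh shRNA at -0.0066. CCNG1 under CD28 shRNA was at 0.047 against the mean of both controls, and RRM2B under CD86 shRNA at -0.016 with voom. The median of ratios put RRM2B at 0.0024 under Gapdh shRNA and -0.0027 in KMS18 against RPMI8226, and TP53INP1 in MM.1s against KMS18 at -0.0018. With controls only, RRM2B in KMS18 against RPMI8226 was at -0.00047 and FAS in MM.1s against KMS18 at -0.029. The cause was not tested. The 4 libraries of a line are not independent lines, and 1 library per combination limits every response of a single line. CDKN1A had as few as 52 reads in a library.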
